A study of Mus musculus with 6 samples.

Results

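The 6 genes of the microRNA processing machinery were *Drosha*, *Dgcr8*, *Xpo5*, *Dicer1*, *Tarbp2* and *Prkra*. They were chosen by function, with earlier results of these data known. All 6 were found among the 54146 genes of the count tables by their Ensembl identifiers. Libraries were made from GFP-positive cells of the embryonic mouse cortex, sorted at E15.5 (embryonic day), 24 hours after plasmids were driven into the cortex by in utero electroporation at E14.5. The Mir group received a plasmid in which the U6 promoter drives a hairpin precursor of miR-3607-5p, and the Scr group received the same vector with the supplier's scrambled hairpin. Both groups also received pCAG-GFP, a reporter under the ubiquitous CAG promoter, at 0.7 µg/µl, beside 1 µg/µl of the hairpin plasmid, and all embryos were wild type. The labels conflict on the strain, with ICR in one field and C57BL/6 in another. Each library pooled the cells of 2 embryos, and each group held 3 such pools, so p-values measure the spread between pools. Every library carried a U6 hairpin, so the comparison is between hairpin sequences, and a group without any hairpin was not analysed here.

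MicroRNAs are cut from long primary transcripts in the nucleus by the Microprocessor, in which the RNase III enzyme Drosha works with the RNA-binding protein DGCR8. Exportin-5, the product of *Xpo5*, carries the resulting precursor hairpin to the cytoplasm, where the RNase III enzyme Dicer, assisted by TRBP (*Tarbp2*) or PACT (*Prkra*), cuts off its loop and yields the duplex loaded into Argonaute. A short hairpin made from the U6 promoter has the form of a precursor already, so it does not need Drosha but is carried by Exportin-5 and cut by Dicer. In the developing cortex, loss of Dicer or of Dgcr8 is known to disturb progenitors and to reduce the number of neurons.

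The strand that the Mir hairpin delivers is shown because its seed decides which messages it could pair with. It is part of the cloned oligonucleotide that the labels print and is written in DNA letters, with the seed (bases 2 to 8) in capitals.
miR-3607-5p strand: gCATGTGAtgaagcaaatcagt
Matches to this seed were searched as TCACATG (bases 2 to 8) and CACATGA (bases 2 to 7 with an A opposite base 1), on the sense strand of the GENCODE M21 transcript with the longest coding sequence. None of the 6 genes held such a match in its 3′ UTR, against 15.7% of 20688 genes searched. These UTRs were 168 nt in *Drosha*, 1574 nt in *Dgcr8*, 1327 nt in *Xpo5*, 3851 nt in *Dicer1*, 334 nt in *Tarbp2* and 513 nt in *Prkra*. Coding sequences were 4122 nt in *Drosha*, 3615 nt in *Xpo5* and 5721 nt in *Dicer1*. Those of *Dgcr8*, *Tarbp2* and *Prkra* were 2322, 1098 and 942 nt. The shares over all genes were not adjusted for length. Within coding sequences, where 13.8% of 22482 genes held a match, *Drosha* and *Xpo5* held 1 each, shown with the match in capitals.
Drosha coding match: aaagttcaTCACATGcacatgcg
Xpo5 coding match: cctacctcCACATGAggctctct
The *Drosha* stretch lies on the plus strand at chr15:12890142-12890164 of GRCm38, and the *Xpo5* stretch is joined across an intron on the plus strand between chr17:46236997 and chr17:46238381. A match is a description of the letters and says nothing of pairing in the cell.

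*Dgcr8* carries hairpins in its own message that the Microprocessor is known to cut, by which the complex limits its own supply. The mature microRNAs of these hairpins, miR-1306 and miR-3618, are given from RefSeq (GRCm38.p6), with their seeds in capitals, because they mark the stretches of *Dgcr8* where the complex acts on a member of its own pathway.
miR-3618-5p: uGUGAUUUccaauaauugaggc
miR-3618-3p: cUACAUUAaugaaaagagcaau
miR-1306-5p: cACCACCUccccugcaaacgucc
miR-1306-3p: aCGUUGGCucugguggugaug
All 4 lie on the minus strand inside annotated exons of *Dgcr8*, from chr16:18284602-18284623 for miR-3618-5p to chr16:18284248-18284268 for miR-1306-3p, and they have 4 different seeds. The annotated precursor genes there, Gm24572 for miR-3618 (88 bp) and *Mir1306* (79 bp), were listed at 0 counts in all 6 libraries. A read that falls in both a precursor gene and *Dgcr8* may be set aside as ambiguous, so these zeros do not measure cutting.

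Between 12724511 and 16684038 reads per library were counted in genes. In the sorted cells, the 12 radial glia markers listed (apical progenitors; *Pax6*, *Sox2* and others) summed to 1698 to 2395 CPM (read counts scaled to library size, with the trimmed mean of M values as correction) in Scr and 2377 to 3189 CPM in Mir. The 10 markers of cortical neurons summed to 5488 to 6506 and 4824 to 5279 CPM, so the libraries held neurons as well as the progenitors named in the labels. Scr replicate 2 was the lowest library for radial glia and mitotic (G2/M) markers and the highest for inhibitory neuron markers, at 987 CPM against 249 and 348 CPM in the other Scr libraries and 112 to 313 CPM in Mir. Endothelial markers summed to 11.7 to 216 CPM in Scr and 1.21 to 34.4 CPM in Mir, and microglial markers to 21.3 to 76.0 and 10.1 to 51.4 CPM. Mir replicate 3 was the highest Mir library for inhibitory neuron, endothelial, microglial and red blood cell markers. In such pooled cells, fewer cells of a type and less RNA per cell cannot be told apart.

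All 6 processing genes were measured well above the filter on low counts. None was called different between Mir and Scr in the test over all genes, which called almost no gene and so says little about these 6. The edgeR quasi-likelihood test called 0 of the 6 at an adjusted p under 0.05, where it called 1 of 16897 genes, or 0.00592%. At an unadjusted p under 0.05 it gave 1 of 6, *Xpo5*, where 6.57% of all genes passed with a higher mean in Mir. DESeq2 called 0 of the 6, against 4.37% of the genes it gave an adjusted p, and limma-voom called 0 of the 6 and 0% of all genes (14.9% at an unadjusted p under 0.05). All 6 had a higher mean in Mir, as did 48.8% of all genes, and their median log2 fold change (Mir over Scr) was 0.10 against -0.01 over all genes. In 2 of the 6, *Xpo5* and *Tarbp2*, every Mir library lay above every Scr library, which held for 9.72% of all genes.

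**Figure D1:**
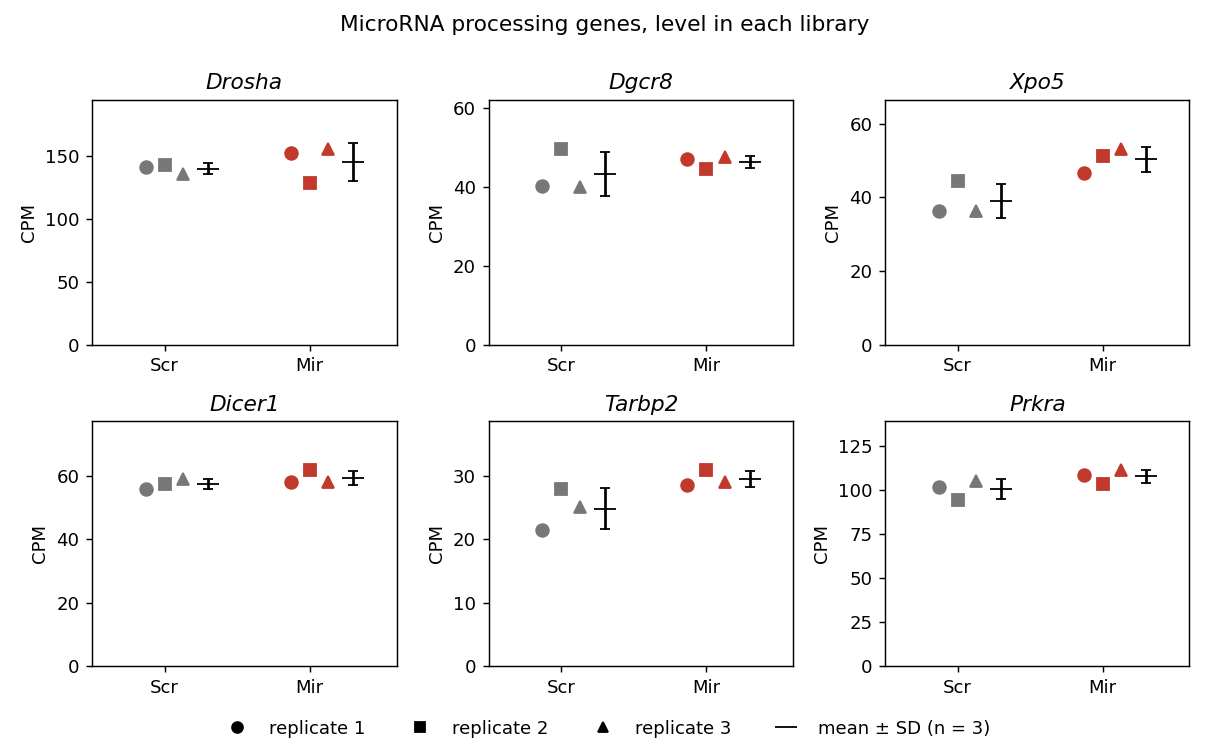
Level of each processing gene in CPM (vertical axis, from 0) in the 3 Scr libraries (grey) and the 3 Mir libraries (red), with symbols for the replicate and bars for the mean ± SD. The Mir libraries lie above the Scr libraries for *Xpo5* (46.7 to 53.2 against 36.3 to 44.4 CPM) and *Tarbp2*, and overlap them for the other 4 genes.

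*Drosha* (ENSMUSG00000022191, plus strand of chromosome 15, 12824815 to 12935291), the nuclear RNase III, was at 141, 143 and 135 CPM in Scr replicates 1, 2 and 3 and at 152, 128 and 155 CPM in Mir replicates 1, 2 and 3. The Mir libraries lay on either side of the Scr libraries, with replicate 2 the lowest of all 6. The log2 fold change was 0.05 ± 0.10 (SE), with a 95% interval of -0.18 to 0.28 and an edgeR adjusted p of 0.840. That interval runs from 11.5% lower to 21.8% higher in Mir. Without Mir replicate 3 the edgeR value was -0.01, so no direction can be given for *Drosha*.

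*Dgcr8* (ENSMUSG00000022718, minus strand of chromosome 16, 18253948 to 18289246), the partner that recognises the primary hairpin, was at 40.2, 49.6 and 39.9 CPM in the Scr libraries and at 47.0, 44.6 and 47.5 CPM in the Mir libraries. Scr replicate 2 was the highest of all 6 libraries and the other Scr libraries were the lowest. The log2 fold change was 0.10 ± 0.12 (SE), with a 95% interval of -0.17 to 0.38 and an edgeR adjusted p of 0.731. Without Scr replicate 2 it was 0.21 (edgeR adjusted p 0.466). Other genes share 17.1% of the annotated exon length of *Dgcr8*, with 825 bp of it in *Trmt2a* on the opposite strand, a tRNA methyltransferase gene with 1150 to 1607 counts. The library kit does not mark strand, so reads in that stretch cannot be assigned to either gene.

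The ratio of the Microprocessor partners within a library does not depend on how libraries are scaled. There were 28.5, 34.7 and 29.5 *Dgcr8* reads for every 100 *Drosha* reads in Scr replicates 1, 2 and 3, and 30.9, 34.8 and 30.6 in the Mir libraries. The ratio was highest in replicate 2 of each group, and the groups overlapped. The difference of the mean log2 ratios was 0.06 (exact two-sided permutation p = 0.5, adjusted over 4 ratios 0.667). With 3 against 3 libraries this test cannot give a p below 0.1.

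*Xpo5* (ENSMUSG00000067150, plus strand of chromosome 17, 46202782 to 46243598), which encodes the nuclear exporter of precursor hairpins, showed the largest difference of the 6 genes. It was at 36.3, 44.4 and 36.4 CPM in the Scr libraries and at 46.7, 51.2 and 53.2 CPM in the Mir libraries, with the lowest Mir library above the highest Scr library, replicate 2. The means were 39.0 ± 4.65 and 50.4 ± 3.34 CPM (SD, n = 3), a 1.29-fold difference. The log2 fold change was 0.37 ± 0.12 (SE), with a 95% interval of 0.09 to 0.65. The difference did not pass the test over all genes, with an edgeR adjusted p of 0.261 (unadjusted 0.0164, at which 1058 genes had a p as small or smaller), a DESeq2 adjusted p of 0.137 and a limma-voom adjusted p of 0.260. Over its 14 alternative settings the log2 fold change stayed between 0.31 and 0.47 and the adjusted p between 0.133 and 0.611. Without Scr replicate 2 and Mir replicate 3 it was 0.43.

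The G2/M markers moved with the groups as *Xpo5* did, summing to 1491 to 2345 CPM in Scr and 2470 to 2917 CPM in Mir without overlap. By their means all 12 G2/M markers were higher in Mir (median log2 fold change 0.41). The same held for all 12 radial glia markers (median 0.37) and all 7 intermediate progenitor markers (median 0.44). The sums of both progenitor lists overlapped between groups, that of radial glia by a narrow margin (up to 2395 CPM in Scr and from 2377 CPM in Mir), and that of intermediate progenitors at 1600 to 2601 CPM in Scr and 2074 to 3278 CPM in Mir. The order within Scr differed from that of *Xpo5*, since Scr replicate 2 was the highest Scr library for *Xpo5* and the lowest for the mitotic markers. The part of cell composition in the *Xpo5* difference was not tested.

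*Dicer1* (ENSMUSG00000041415, minus strand of chromosome 12, 104687742 to 104751952), the cytoplasmic RNase III, varied least of the 6 across the Scr libraries, with a coefficient of variation of 2.67%. That of *Drosha* was close, at 2.93%, and counting alone gives 3.73% at the lowest *Dicer1* count, so this rank is weak. *Dicer1* was at 55.9, 57.5 and 59.0 CPM in Scr and at 57.9, 61.8 and 57.9 CPM in Mir, with the groups overlapping. The log2 fold change was 0.04 ± 0.09 (SE), with an edgeR adjusted p of 0.852. Its 95% interval, -0.16 to 0.24, runs from 10.2% lower to 18.2% higher in Mir.

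Relative to *Dicer1*, the exporter was more abundant in every Mir library. There were 64.9, 77.2 and 61.6 *Xpo5* reads per 100 *Dicer1* reads in the Scr libraries and 80.6, 82.9 and 91.8 in the Mir libraries. The mean log2 ratios differed by 0.33, with no overlap between groups (exact two-sided permutation p = 0.1, the smallest possible, adjusted over 4 ratios 0.4). The ratio of *Dicer1* to *Drosha*, the cytoplasmic and the nuclear cutter, was 39.6, 40.2 and 43.7 reads per 100 in the Scr libraries and 38.1, 48.3 and 37.3 in the Mir libraries. Mir replicate 2 was the highest and the other Mir libraries were the lowest, and the mean log2 ratio differed by -0.01 (exact two-sided permutation p = 1).

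Dicer's double-stranded RNA-binding partners TRBP and PACT are related proteins that act in opposite ways on the antiviral kinase PKR, TRBP restraining it and PACT activating it. *Tarbp2* (ENSMUSG00000023051, plus strand of chromosome 15, 102518192 to 102523676) was at 21.4, 27.9 and 24.99 CPM in the Scr libraries and at 28.5, 30.9 and 29.0 CPM in the Mir libraries. The groups did not overlap, but the lowest Mir library lay only just above Scr replicate 2. The log2 fold change was 0.25 ± 0.14 (SE), with a 95% interval of -0.07 to 0.56 and an edgeR adjusted p of 0.445. It was 0.15 without Scr replicate 1, the lowest library, and 0.34 without Scr replicate 2. Of the 25-nt words in the 14 annotated *Tarbp2* transcripts, 17.6% occur in another gene. Most of these (834 of 843) occur in Gm18584, annotated as a processed pseudogene. The share within the transcript of longest coding sequence alone, of 1523 nt, was not computed and may differ. Gm18584 held 17 to 36 counts against 275 to 483 for *Tarbp2*, so the level of *Tarbp2* is uncertain where reads match both.

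*Prkra* (ENSMUSG00000002731, minus strand of chromosome 2, 76629898 to 76648015) was at 102, 94.1 and 105 CPM in the Scr libraries and at 108, 103 and 111 CPM in the Mir libraries. Mir replicate 2 lay below Scr replicate 3, so the groups overlapped. The log2 fold change was 0.10 ± 0.08 (SE), with a 95% interval of -0.10 to 0.30 and an edgeR adjusted p of 0.618. No 25-nt word of *Prkra* occurred in another gene. There were 21.1, 29.7 and 23.8 *Tarbp2* reads per 100 *Prkra* reads in the Scr libraries and 26.3, 29.8 and 26.1 in the Mir libraries, overlapping (difference of mean log2 ratios 0.15, exact two-sided permutation p = 0.4, adjusted over 4 ratios 0.667). *Eif2ak2*, which encodes PKR, was at 8.26, 5.00 and 18.7 CPM in Scr and 10.6, 16.7 and 11.1 CPM in Mir, with no separation of the groups.

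**Figure D2:**
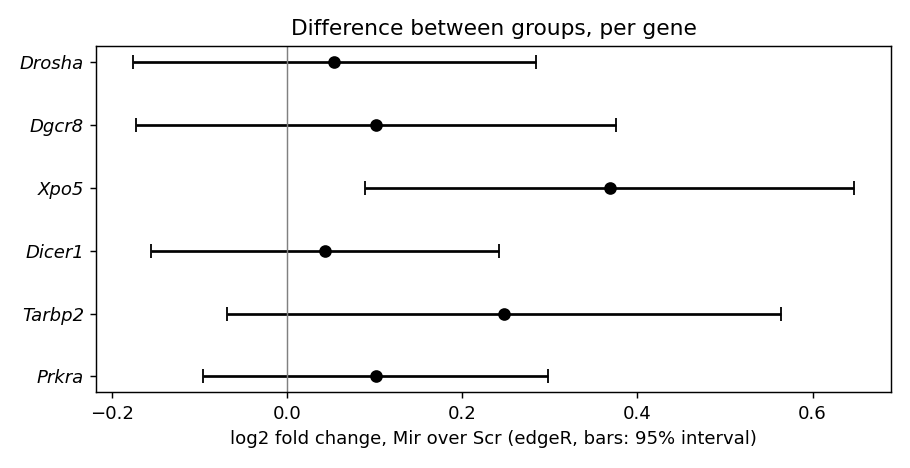
Log2 fold change of each processing gene, Mir over Scr (horizontal axis), as points with 95% intervals from the edgeR fit; the vertical line marks no difference. The interval of *Xpo5* runs from 0.09 to 0.65 and those of the other 5 genes include 0.

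Levels of different genes were compared per kb of 1 transcript a gene, that of longest coding sequence. *Prkra* was the highest in every library, at 58.3 to 68.8 CPM per kb, followed by *Drosha* at 28.0 to 34.0 CPM per kb. *Tarbp2* came next at 14.1 to 20.3 CPM per kb, then *Dgcr8* at 9.23 to 11.5, *Xpo5* at 7.15 to 10.5 and *Dicer1* at 5.68 to 6.27 CPM per kb. This order held within each of the 6 libraries, although across libraries *Dgcr8* and *Xpo5* overlapped. Per kb of all annotated exons, which count retained introns too, *Prkra* (46.4 to 54.8 CPM per kb), *Drosha* (21.6 to 26.2) and *Dicer1* (3.34 to 3.69) kept their places, while the ranges of *Xpo5* (5.29 to 7.76), *Tarbp2* (4.71 to 6.78) and *Dgcr8* (5.18 to 6.44) over all libraries overlapped. On this scale *Xpo5* lay above *Dgcr8* in each of the 6 libraries, and in Mir all its values (7.34 ± 0.49 CPM per kb, SD, n = 3) were above those of *Tarbp2* (6.47 ± 0.27) and *Dgcr8* (6.02 ± 0.20). The order of *Dgcr8*, *Tarbp2* and *Xpo5* thus depended on the length used. On that scale *Prkra* stood at the 92.6th percentile of the genes tested, *Drosha* at the 82.4th and *Dicer1* at the 40.9th. So the counts per kb of the Microprocessor partners were unequal, with *Dgcr8* below *Drosha* in each library on either scale. Other genes share 17.1% of the exon length of *Dgcr8* and 1.21% of that of *Drosha*. The part of this overlap in the unequal values was not tested.

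Across the 6 libraries, the genes whose log2 CPM ran most like each processing gene were sought among 10424 others with a mean of at least 10 CPM. For *Xpo5* they were *Slc20a2* and *Amz1* (Pearson r of 0.995 each), for *Tarbp2* *Get4* and *Pgd* (r of 0.990 each), and for *Prkra* *Arl6ip1* (0.997) and *Cenpx* (0.990). For *Drosha* they were *Ndst1* (0.989) and *Lrrfip2* (0.987), for *Dgcr8* *Gpat4* (0.998) and *Zfp316* (0.988), and for *Dicer1* *Usp37* (0.987) and *Mastl* (0.975). These values describe 6 points, picked as the closest among all those genes. An r above 0.95 was reached by 97 genes for *Xpo5* and by 5 for *Dicer1*.

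Around the 6 enzymes, 71 other genes of the pathway were listed, 69 were found and 64 passed the filter. The edgeR test called 0 of the 64, with 2 higher and 6 lower at an unadjusted p under 0.05 (6.57% and 7.93% of all genes), limma-voom called 0, and DESeq2 called 0 higher and 3 lower, where it called 4.37% of all genes in either direction. Their median log2 fold change was 0.03, with 34 means higher and 30 lower. The groups did not overlap for 4 genes higher in Mir and 9 lower, where 9.72% and 10.3% of all genes behaved so.

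**Figure D3:**
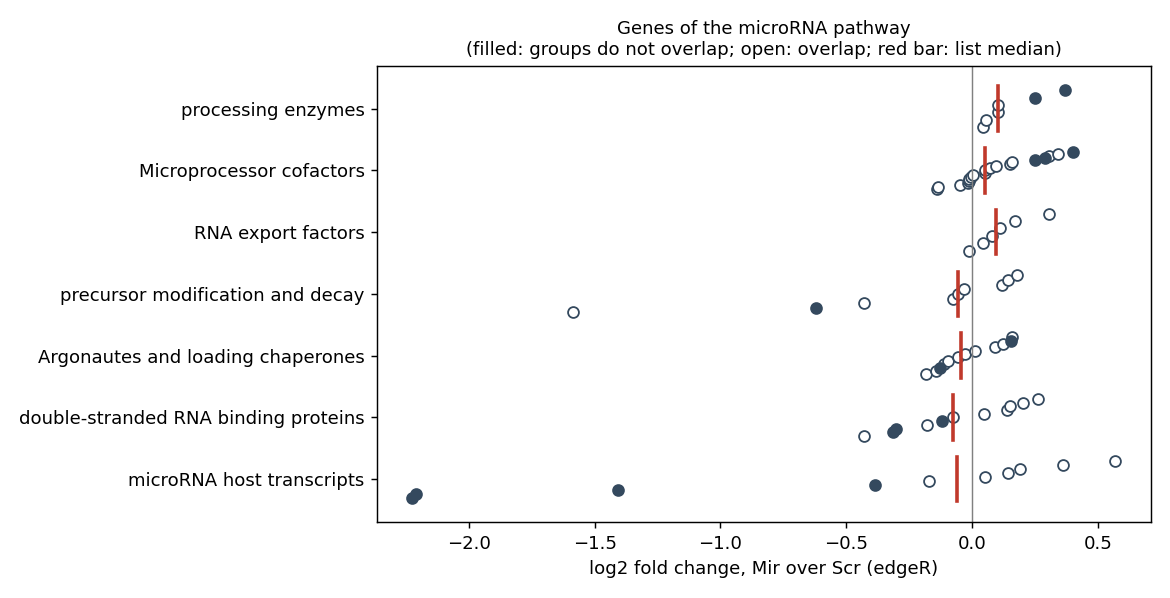
Log2 fold change, Mir over Scr (horizontal axis), of each tested gene in 7 groups of the pathway (rows); filled points have no overlap between the 3 Mir and 3 Scr libraries, open points overlap, and red bars are medians. The medians lie between -0.08 and 0.10, and the points furthest left are host transcripts near -2.2.

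Of 19 cofactors of the Microprocessor, the mean was higher in Mir for 12 and lower for 7, the median log2 fold change was 0.05 and edgeR called 0. The smallest p was that of *Srrt* (ARS2, which links the cap-binding complex to primary microRNAs), at 106, 116 and 137 CPM in Scr and 164, 150.6 and 158 CPM in Mir. All Mir libraries lay above all Scr libraries, and the log2 fold change was 0.40 ± 0.11 (SE), with an edgeR adjusted p of 0.233 and a DESeq2 adjusted p of 0.0522. *Hnrnpa2b1*, an RNA-binding protein linked to methylated primary transcripts, was at 0.16 ± 0.08 (log2 fold change ± SE), and *Safb2*, which helps the Microprocessor with poor hairpins, at 0.29 ± 0.14. Their edgeR adjusted p was 0.389 and 0.397.

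Of 6 RNA export factors, the mean was higher in Mir for 5, the median log2 fold change was 0.09 and edgeR called 0. *Rcc1*, the exchange factor that charges Ran with GTP for exportins, was at 76.4, 69.9 and 70.8 CPM in Scr and 75.6, 88.2 and 104 CPM in Mir. Mir replicate 1 lay within the Scr range, and the log2 fold change was 0.30 ± 0.13 (SE) with an edgeR adjusted p of 0.332. The exportin genes *Xpo1*, which serves proteins and many RNAs, and *Xpot*, which serves tRNAs, were at 0.11 ± 0.08 and 0.17 ± 0.23 (log2 fold change ± SE), with edgeR adjusted p-values of 0.583 and 0.774, and their groups overlapped. The difference between *Xpo5* and these exportins was not tested.

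Of 12 genes that modify or degrade precursors 9 passed the filter, 3 with higher and 6 with lower means, a median log2 fold change of -0.06 and 0 called by edgeR. *Mbnl1*, a splicing factor that also binds a microRNA precursor, was at 37.3, 44.0 and 33.4 CPM in Scr and 21.9, 25.04 and 27.7 CPM in Mir, with no overlap. Its log2 fold change was -0.62 ± 0.15 (SE), with an edgeR adjusted p of 0.212 and a DESeq2 adjusted p of 0.0194. *Adarb1*, an adenosine deaminase, was at -0.43 ± 0.28 and *Msi2*, an RNA-binding protein, at 0.18 ± 0.12 (log2 fold change ± SE), with edgeR adjusted p-values of 0.517 and 0.535. *Lin28a*, the blocker of let-7 maturation in early embryos, had 1 count in Scr replicate 2 and 0 in the other libraries, and *Lin28b* had 0 to 42 counts.

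Among the 12 Argonautes and loading factors the mean was higher in Mir for 5 and lower for 7, the median log2 fold change was -0.04 and edgeR called 0. *Stip1* and *Hsp90ab1*, a chaperone linker and a chaperone used in loading, were at 0.15 ± 0.09 and -0.11 ± 0.07 (log2 fold change ± SE), and *Tsnax*, part of a nuclease that clears the passenger strand, at -0.13 ± 0.09. The edgeR adjusted p was 0.459, 0.511 and 0.536 for these genes. *Ago2*, the slicing Argonaute, was at 50.6, 52.3 and 51.1 CPM in Scr and 63.9, 52.2 and 51.2 CPM in Mir, so that only Mir replicate 1 stood above the rest.

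Of 11 other double-stranded RNA-binding protein genes, the mean was higher in Mir for 5 and lower for 6, the median log2 fold change was -0.08 and edgeR called 0. *Stau2*, a transport protein that segregates RNAs in dividing cortical progenitors, was at 142, 171 and 150.0 CPM in Scr and 124, 112 and 137 CPM in Mir, without overlap. Its log2 fold change was -0.31 ± 0.11 (SE), with an edgeR adjusted p of 0.283. *Nkrf* and *Son* were at -0.30 ± 0.14 and -0.18 ± 0.11 (log2 fold change ± SE), and their edgeR adjusted p was 0.376 and 0.497.

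Host transcripts, the long RNAs from which microRNAs are cut or whose introns hold them, held the largest single differences among the pathway lists. There were 12 found and 10 tested, 5 with higher and 5 with lower means, a median log2 fold change of -0.06 and 0 called by edgeR. In 4 of them, *Meg3*, *Rian*, *Mirg* and *Mir124-2hg*, every Mir library lay below every Scr library, where 10.3% of all genes did so. DESeq2 called *Rian* and *Mir124-2hg*, and gave *Mirg* no adjusted p. *Meg3*, *Rian* and *Mirg* are neighbours in 1 imprinted cluster of noncoding RNAs on chromosome 12, so they are not independent of each other.

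The microRNAs of this cluster are illustrated by 1 for each transcript, from RefSeq (GRCm38.p6), with the seed in capitals, because these are products whose hosts differed most between groups.
miR-770-5p in an exon of Meg3: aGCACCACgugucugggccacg
miR-370-3p in an intron of Rian: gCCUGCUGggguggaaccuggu
miR-134-5p in an exon of Mirg: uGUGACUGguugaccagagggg
They lie on the plus strand at chr12:109563710-109563731, chr12:109618305-109618326 and chr12:109734145-109734166. Mature microRNAs are too short for this library type and were not measured.

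*Rian* had 92, 164 and 119 counts in the Scr libraries and 15, 26 and 45 in the Mir libraries, or 7.17, 11.9 and 7.17 CPM against 0.954, 1.66 and 3.05 CPM. Its log2 fold change was -2.21 ± 0.44 (SE), with an edgeR adjusted p of 0.186 and a DESeq2 adjusted p of 0.000523. *Mirg* had 14, 24 and 15 counts in Scr and 4, 6 and 2 in Mir, with a log2 fold change of -2.22 ± 0.53 (SE) and an edgeR adjusted p of 0.212. *Meg3*, the most abundant of them, was at 81.6, 208 and 98.2 CPM in Scr and 38.3, 35.8 and 72.2 CPM in Mir, with a log2 fold change of -1.41 ± 0.41 (SE) and edgeR adjusted p of 0.236. For *Meg3* and *Rian*, Scr replicate 2 was the highest library and Mir replicate 3 the highest of its group, the same libraries that were highest in their groups for inhibitory neuron, endothelial and red blood cell markers. *Mirg* was also highest in Scr replicate 2, but Mir replicate 3 was its lowest library. Microglial markers were highest in Scr replicate 3, at 76.0 CPM against 58.9 CPM in Scr replicate 2. Endothelial sums were 216 CPM in Scr replicate 2 and 34.4 CPM in Mir replicate 3, with all 8 markers lower in Mir by their mean (median log2 fold change -2.97). Red blood cell sums were 858 and 575 CPM in these libraries, with all 5 tested markers lower (median -1.29). The mean of each of the 8 inhibitory neuron markers was lower in Mir (median log2 fold change -1.54), among them *Sst*, *Dlx5* and *Dlx6*. The edgeR adjusted p was 0.244, 0.276 and 0.282 for these genes, and DESeq2 called *Dlx6* alone of the 8 markers, at an adjusted p of 0.0405. Without both of these libraries, edgeR called 29 genes among all genes. Of the 64 pathway genes it then called only *Meg3*, as lower (log2 fold change -1.28, adjusted p 0.0407). As the 2 libraries were the highest of their groups for *Meg3*, leaving them out also narrowed its spread within each group. The part of these other cell types in the differences was not tested.

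*Mir124-2hg*, named for the neuronal microRNA miR-124, was at 132, 132 and 140.2 CPM in Scr and 107, 113 and 90.0 CPM in Mir. The Scr libraries were close together and the Mir libraries all lower, with a log2 fold change of -0.39 ± 0.10 (SE), an edgeR adjusted p of 0.224 and a DESeq2 adjusted p of 0.0385. *Mir124a-1hg*, named for another copy of that microRNA, was at 46.8, 53.7 and 31.6 CPM in Scr and 35.8, 47.9 and 52.9 CPM in Mir, with overlap and an edgeR adjusted p of 0.943. Despite the names, no mature RefSeq microRNA lay on the same strand inside the annotated span of *Mir124-2hg* or *Mir124a-1hg*. The host of the progenitor microRNA miR-9, *Mir9-3hg*, was at 165, 137 and 176 CPM in Scr and 187, 197 and 161 CPM in Mir. *Mir99ahg*, whose introns hold let-7c and miR-125b, was at 345, 210.0 and 269 CPM in Scr and 473, 486 and 262 CPM in Mir, with replicate 3 of Mir inside the Scr range. Of the 10 cortical neuron markers 7 were lower in Mir by their mean and 3 higher, with a median of -0.27 (log2 fold change), and their sums did not overlap between groups. Their part in the *Mir124-2hg* difference was not tested.

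**Figure D4:**
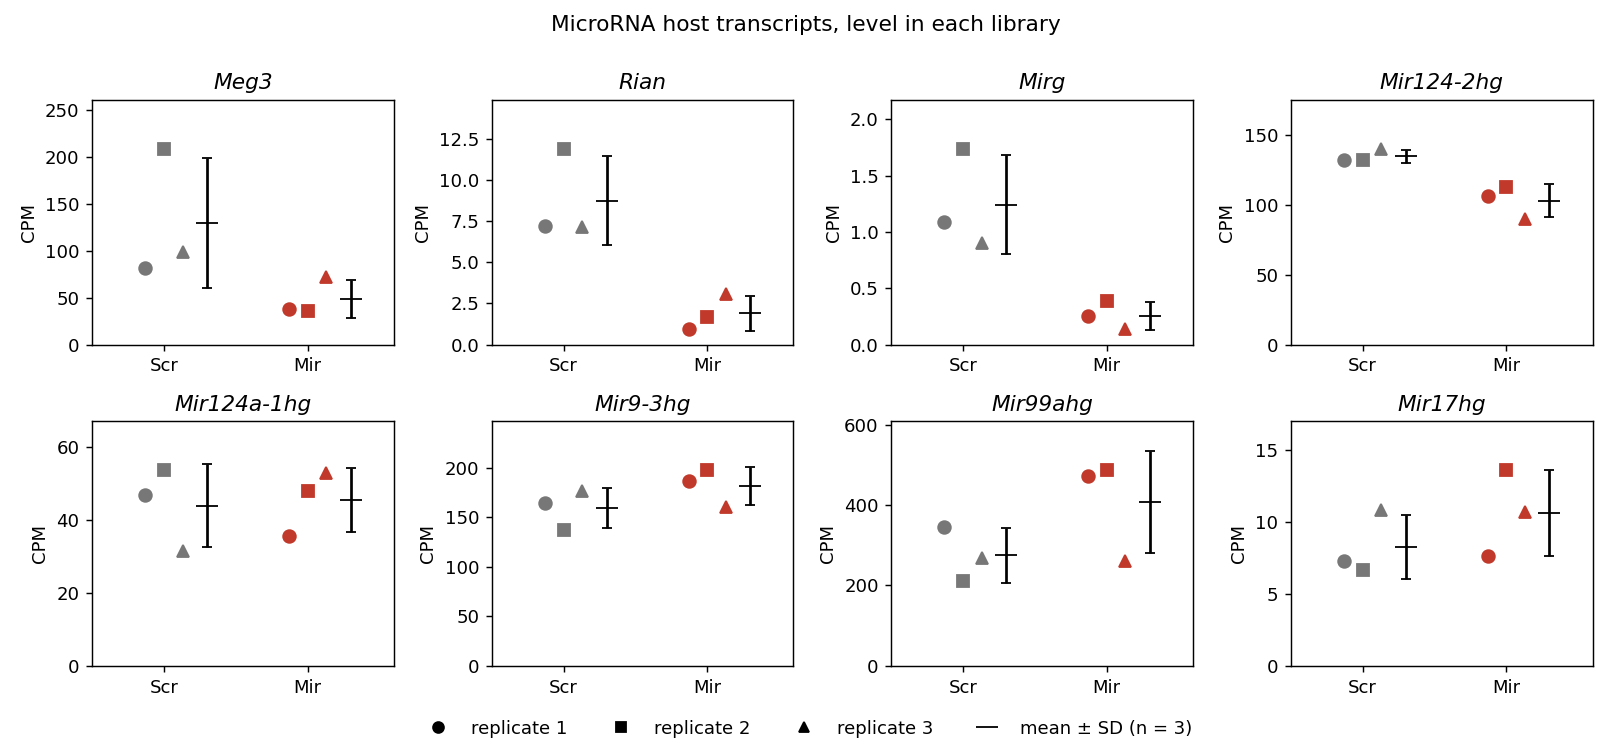
Level in CPM (vertical axis, from 0, with a scale for each panel) of 8 microRNA host transcripts in the 3 Scr libraries (grey) and 3 Mir libraries (red), with symbols for the replicate and bars for the mean ± SD. Every Mir library lies below every Scr library for *Meg3*, *Rian*, *Mirg* and *Mir124-2hg* in the top row, and the groups overlap in the bottom row.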

How the data were processed

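RNA of GFP-sorted cortical cells (3 Scr and 3 Mir pools, groups from the sample titles) was made into SMART-seq v4 libraries and read as 50 bp single reads, per the labels' protocols. The deposited values are raw read counts per gene, which the authors made, per the submitters' processing notes, with HISAT2 2.1.0 and HTSeq 0.11.0 on mm10 (GRCm38). DESeq2 1.18.1 is also named there. The annotation, strand setting and treatment of multiply matching reads are not given in the sources used. Of 54146 genes listed, 54079 had a symbol in GENCODE M21. The 5 summary lines, which held 76.4 to 78.1% of listed reads, were left out of library sizes and tests.

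Counts were tested with edgeR 4.0.16 (R 4.3.3), by its two-sided quasi-likelihood test with group as the sole term, TMM scaling, filterByExpr (16897 genes) and Benjamini-Hochberg adjustment over all of them at 0.05. Fold changes are ± SE with 95% intervals from the same fit. DESeq2 1.42.0 and limma 3.58.1 (voom), other scalings and filters, a replicate block and left-out libraries were alternatives. Ratios used exact permutation tests. Libraries of a group differed beyond sampling noise (chi-square of 8.23 to 28.2 for each degree of freedom). Counting alone gave a coefficient of variation of up to 6.03% for the 6 genes.

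Genes named were the 6 members, up to 3 genes of smallest p and any gene called in each list, the 2 genes most like each member, and genes overlapping a member. *Eif2ak2*, *Ago2*, *Lin28a*, *Lin28b*, *Meg3*, *Mir124a-1hg*, *Mir9-3hg*, *Mir99ahg* and Gm18584 were added after their values were seen. The members and lists were chosen with earlier results of these data known. *Mir100hg* and *Mirlet7bhg* were not matched.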

Additional observations from a re-analysis of the deposited data

How the results depend on the processing

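The count of members called was 0 under all 14 alternatives, DESeq2 and limma-voom among them. Apart from DESeq2, these called at most 31 of all genes, so a count of 0 members says little. The directions of *Dgcr8*, *Xpo5*, *Dicer1*, *Tarbp2* and *Prkra* held under each of the 14 alternatives. Leaving out 1 library at a time, log2 fold changes ran from -0.013 (without Mir replicate 3) to 0.14 for *Drosha*, 0.05 to 0.21 for *Dgcr8*, 0.31 to 0.47 for *Xpo5*, 0.02 to 0.07 for *Dicer1*, 0.15 to 0.34 for *Tarbp2* and 0.05 to 0.14 for *Prkra*. The ratios ran from -0.00053 (without Mir replicate 2) to 0.15 for *Dgcr8* to *Drosha*, -0.12 to 0.061 for *Dicer1* to *Drosha*, 0.26 to 0.43 for *Xpo5* to *Dicer1* and 0.04 to 0.29 for *Tarbp2* to *Prkra*. The *Dicer1* to *Drosha* ratio was positive without Scr replicate 3 (0.037), Mir replicate 1 (0.045) or Mir replicate 3 (0.061), and without both Scr replicate 2 and Mir replicate 3 (0.045), where that of *Dgcr8* to *Drosha* was 0.18. Of all genes, 580 were called by DESeq2, 0 by limma-voom, 31 without a filter, 0 with the replicate block, 29 without Scr replicate 2 and Mir replicate 3, and 0 to 2 with 1 library left out, against 1. Of pathway genes 3 were called by DESeq2 and 1 without both libraries. Members without overlap between groups, a count added after seeing the data, numbered 2 with all libraries (9.72% of all genes), 4 without Scr replicate 3 (14.2% of all genes) or Mir replicate 2 (12.7%), 3 without Scr replicate 2 (15.7%) or without both Scr replicate 2 and Mir replicate 3 (25.03%), and 2 with another library left out (13.6 to 18.2%). The causes were not tested.

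The labels do not say that a replicate number marks a shared litter or day. Deviations of same-numbered libraries correlated at 0.25, -0.15 and -0.09, and those of differently numbered libraries at -0.33 to 0.36. With 3 libraries a group, these values cannot show whether the numbers pair the samples. With the replicate block, *Xpo5* was at 0.37 (edgeR adjusted p 0.289) and *Tarbp2* at 0.25 (0.423). The biological coefficient of variation, 9.94 to 14.6% for the 6 genes and 23.6% as the common value over all genes, limits what 3 pools per group can show.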
